A study of Canis lupus familiaris with 7 samples.

Results

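The integrins and the cytoplasmic proteins bound to their tails were followed in the left ventricle of mongrel dogs, adult males, after a low-salt diet. A gene was included when its symbol in the array's annotation begins with ITGA or ITGB, or is one of ILK, PARVA, PARVB, TLN1, TLN2, VCL, PXN, FERMT2 and LIMS1. Only probe sets assigned to a single gene symbol were used. A probe set is a short group of probes aimed at 1 transcript. This gave 37 genes read by 84 probe sets, of 15115 genes and 29254 probe sets with a single symbol. One probe set annotated to ITGAD together with a second symbol was not included. The 4 leukocyte integrin genes ITGAL, ITGAM, ITGAX and ITGB2 were kept apart from the other 33. The symbol pattern also takes in ITGB1BP1, ITGB1BP2 and ITGBL1, which are not integrin subunits.

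The samples were 3 control hearts, numbered 1, 3 and 4, and 4 hearts from dogs given food with 0.5% sodium chloride for 2 weeks, numbered 1 to 4. The labels do not give the salt content of the control diet. The design text counts 10 dogs, and their relation to the 7 arrays is not stated. Whether each sample came from its own animal is not stated either, so the p-values cover the spread among the 7 samples, which may be technical. No genotype, surgery or drug is named for either group, and the tissue was whole ventricle, so fewer cells of a type and less RNA per cell cannot be told apart.

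Integrins are heterodimers of an alpha and a beta subunit that span the membrane and bind matrix proteins or receptors on other cells. Talin and kindlin bind the beta tail and switch the receptor to its active state, and integrin-linked kinase, PINCH and parvin form a complex that ties it to actin. In heart muscle these receptors lie at costameres, where the sarcomere's Z-discs are anchored to the membrane and through it to laminin and collagen. Leukocyte integrins pair the beta-2 subunit with a chain of their own and serve adhesion and migration of blood cells.

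No integrin or integrin-linked probe set differed between low salt and control after adjustment over the whole array. The clearest difference was in PARVA, which encodes alpha-parvin, the actin-binding member of the integrin-linked kinase complex: both of its probe sets were lower in all 4 low-salt hearts than in all 3 controls. Single probe sets of ITGA6 and ITGB6 were lower and single probe sets of ITGAV and ITGB5 higher, each at an unadjusted p under 0.05 only. Other probe sets of the same 4 genes lay nearer to 0. FERMT2, ITGB1, ITGB1BP1 and the leading ITGA7 probe set, all well measured, had 95% intervals inside a 2-fold change.

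Of the 84 probe sets, 58 for 30 genes were bright enough to be tested. For a gene with several probe sets, the one with the highest mean over the 7 arrays is called its leading probe set. The test was limma on quantile-normalized log2(intensity + 16), after the third of probe sets with the lowest mean signal had been left out. All 58 had adjusted p-values of at least 0.124 (limma, Benjamini-Hochberg over 28616 probe sets), against 99 calls or 0.346% over the whole array. At an unadjusted p under 0.05 there were 6 of the 58, or 10.3%, with 2 higher and 4 lower. The share over all tested probe sets was 11.0%, with 5.27% higher and 5.78% lower, so the integrin share is near the background. Of the 58, 8 had 1 group's mean under 5.0, the lowest mean signal tested, and so entered the test through the other group; 2 of the 6 were among them, PARVA probe set CfaAffx.12673.1.S1_at and ITGAV probe set CfaAffx.22655.1.S1_at. Of the 50 with both means at or above it, 4 were at an unadjusted p under 0.05, 1 higher and 3 lower, against 9.01% of 24970 such probe sets. The split by direction depends on scaling: it was 1 higher and 4 lower on the values as deposited (8.47% in all, against 13.6%), and 5 higher and 2 lower with array medians set equal (11.9% against 13.7%). The methods' t-test gave 5 at an unadjusted p under 0.05, against 10.0% of all tested probe sets, and 0 after adjustment, against 0.0140%. With a 2-fold change required as well, the study's own threshold, 3 of the 58 passed in limma, against 4.40% of all tested probe sets, and 2 in the methods' t-test, against 3.04%. Both tests used the filtered, normalized log2(intensity + 16) values, so 2-fold here is not 2-fold in deposited intensity.

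The changes of the 58 ranged from -2.03 to 1.33 in low salt minus control on the log2(intensity + 16) scale. Their median was -0.03, beside 0.04 over all tested probe sets, and 24 lay above 0 and 34 below. The groups did not overlap on the normalized scale in 6 of the 58, or 10.3%, against 10.8% of all tested probe sets. The 95% interval lay within a 2-fold change in either direction for 27 of the 58, or 46.6%, against 44.9% of all. For the other 31 a 2-fold difference lies inside the interval, so a p that missed the threshold does not show that they were alike.

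**Figure D1:**
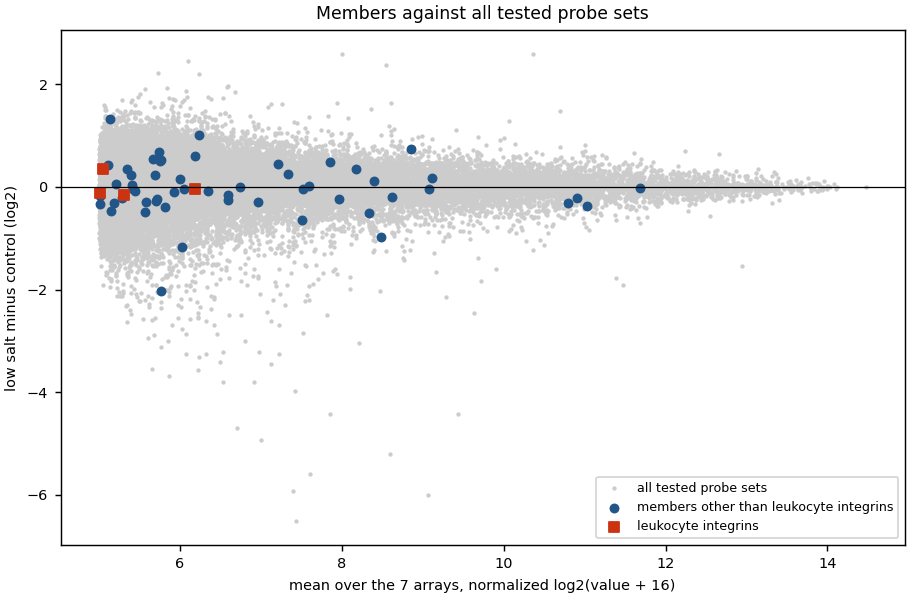
Change (low salt minus control, log2) against mean normalized log2 signal over the 7 arrays for all 28616 tested probe sets in grey, with the leukocyte integrin probe sets as squares and the other integrin and integrin-linked probe sets as dark circles. The member probe sets lie within the grey cloud, from -2.03 for PARVA to 1.33 for ITGAV.

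**Figure D2:**
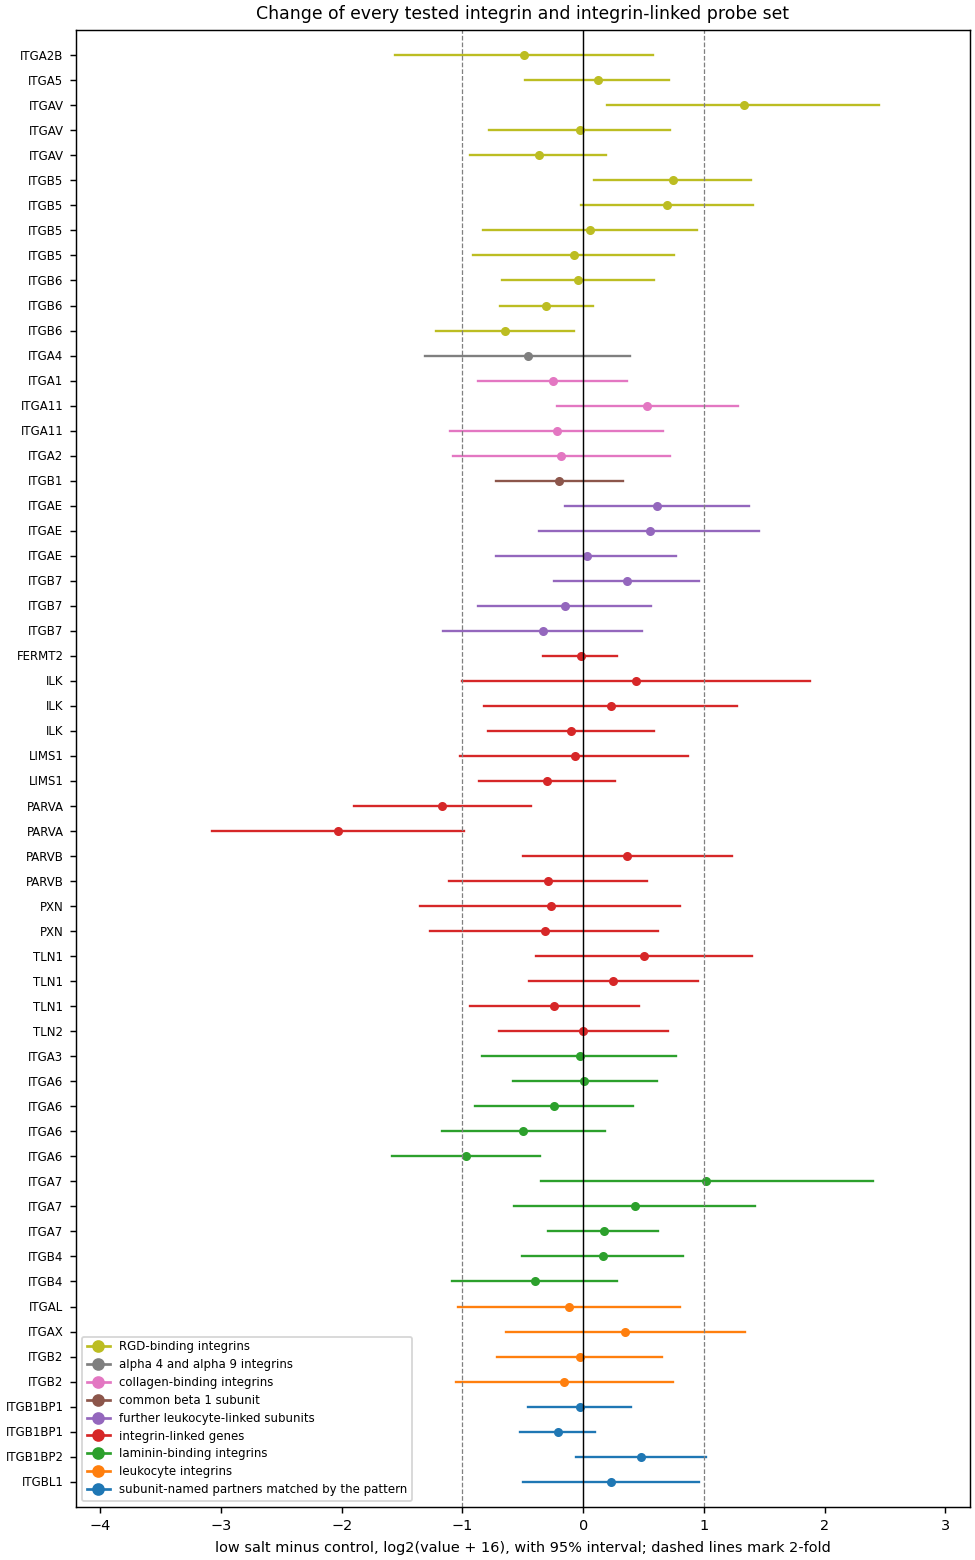
Change of each of the 58 tested probe sets (points) with its 95% limma interval (bars), coloured by role and with dashed lines at a 2-fold change. The intervals of 6 probe sets, 2 of PARVA and 1 each of ITGA6, ITGB6, ITGAV and ITGB5, do not cross 0.

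Of the integrin-linked genes, 16 probe sets for 8 of the 9 genes were tested. At an unadjusted p under 0.05 were 2, or 12.5%, against 11.0% of all tested probe sets. Both were lower and both were of PARVA. PARVA probe set CfaAffx.12673.1.S1_at read intensities of 300.4, 64.7 and 82.4 in controls 1, 3 and 4. In low-salt samples 1 to 4 it read 12.4, 1.14, 27.7 and 11.6. Every low-salt value lay below every control value, and control 1 stood far above the other controls. On the normalized log2 scale the control mean was 6.93 ± 1.18 (SD, n = 3) and the low-salt mean 4.90 ± 0.48 (SD, n = 4). The difference was -2.03 ± 0.49 (SE), with a 95% interval from -3.07 to -0.99 and an adjusted p of 0.124 (limma, unadjusted p = 0.000974). The low-salt mean lies under 5.0, so this probe set entered the test through the controls. It is a 4.08-fold difference on this scale, but for values this dim the size depends on the offset. The difference was -3.07 with an offset of 1 and -1.17 with an offset of 64.

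The other PARVA probe set, CfaAffx.12673.1.S1_s_at, carries the same transcript number and may share probes with the first, so it is not an independent measurement. Its intensities were 149.9, 90.4 and 78.2 in the controls and 19.2, 29.9, 36.7 and 15.9 in low salt. The groups were apart here too, with a difference of -1.17 ± 0.34 (SE, interval -1.90 to -0.43, limma unadjusted p = 0.00423, adjusted p = 0.242). Without control 1, the array of highest PARVA signal, the differences were -1.35 (limma unadjusted p = 0.0073) and -0.89 (unadjusted p = 0.03). The first probe set came under an adjusted p of 0.05 in 3 of the other settings: -2.42 without control 4 (limma adjusted p = 0.0372), -1.86 with array medians set equal (0.0416), and -2.50 with both arrays of high median signal left out (0.0436). In these settings 0.912%, 0.486% and 1.04% of all tested probe sets passed, against 0.346% in the reported fit.

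Control 1 also had the highest ratio of 3' to 5' GAPDH control probe sets, a measure of RNA integrity. That ratio was 40.9, 24.4 and 22.7 in the controls and 17.2, 16.6, 14.5 and 22.6 in low salt, so every control lay above every low-salt sample. The means were 29.3 ± 10.0 (SD, n = 3) and 17.7 ± 3.46 (SD, n = 4), with an exact two-sided permutation p of 0.0571, the smallest that 35 splits allow. The actin ratio did not rank the samples alike: it was 257, 471 and 3698 in the controls and 1101, 1113, 4329.6 and 2883 in low salt. Control 1 was the lowest by actin, and the exact permutation p was 0.457. The part of RNA integrity in the PARVA difference, and in the others given here, was not tested.

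PARVB, which encodes beta-parvin, the other parvin of that complex, had 2 tested probe sets, at -0.29 ± 0.38 (SE) and 0.36 ± 0.40 (SE). Their groups overlapped, and the probe sets lay on either side of 0. ILK, the pseudokinase at the centre of the complex, was unevenly measured. Its leading probe set read 176, 398 and 17.4 in the controls and 166, 189, 98.9 and 187 in low salt, so that the lowest and the highest value were both controls. The difference was 0.44 ± 0.67 (SE, interval -1.0 to 1.88), and the other ILK probe sets were at -0.10 and 0.23. Its sign rests on single controls: it was -0.68 without control 4 and 1.3 without control 3. LIMS1, the PINCH adaptor, read 131, 112 and 162 in the controls and 95.5, 97.5, 102 and 71.7 in low salt with probe set CfaAffx.3950.1.S1_at. These groups did not overlap, but the difference was small against its error, at -0.30 ± 0.26 (SE, interval -0.86 to 0.26, limma unadjusted p = 0.265). Another LIMS1 probe set was at -0.07.

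Of the receptor's activators, FERMT2, which encodes kindlin-2, read 3466, 3739 and 2472 in the controls and 3316, 3895, 2594 and 3982 in low salt. Its groups lay on top of each other, with a difference of -0.02 ± 0.14 (SE) and an interval from -0.33 to 0.28. With array medians set equal it was 0.53 (limma unadjusted p = 0.22), a setting that moved the median of all tested probe sets from 0.04 to 0.26. The talin that all tissues share, TLN1, had probe sets at 0.25 ± 0.32, 0.50 ± 0.42 and -0.24 ± 0.33 (SE). TLN2, the talin typical of muscle, was at 0.00 ± 0.33 (SE), with an interval from -0.70 to 0.70. The adaptor paxillin (PXN) was at -0.27 ± 0.50 and -0.32 ± 0.44 (SE). Both probe sets of vinculin (VCL), which links talin to actin, were too dim to be tested, with intensities of 1.0 to 34.7 and 0.547 to 14.5 over the 7 arrays.

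**Figure D3:**
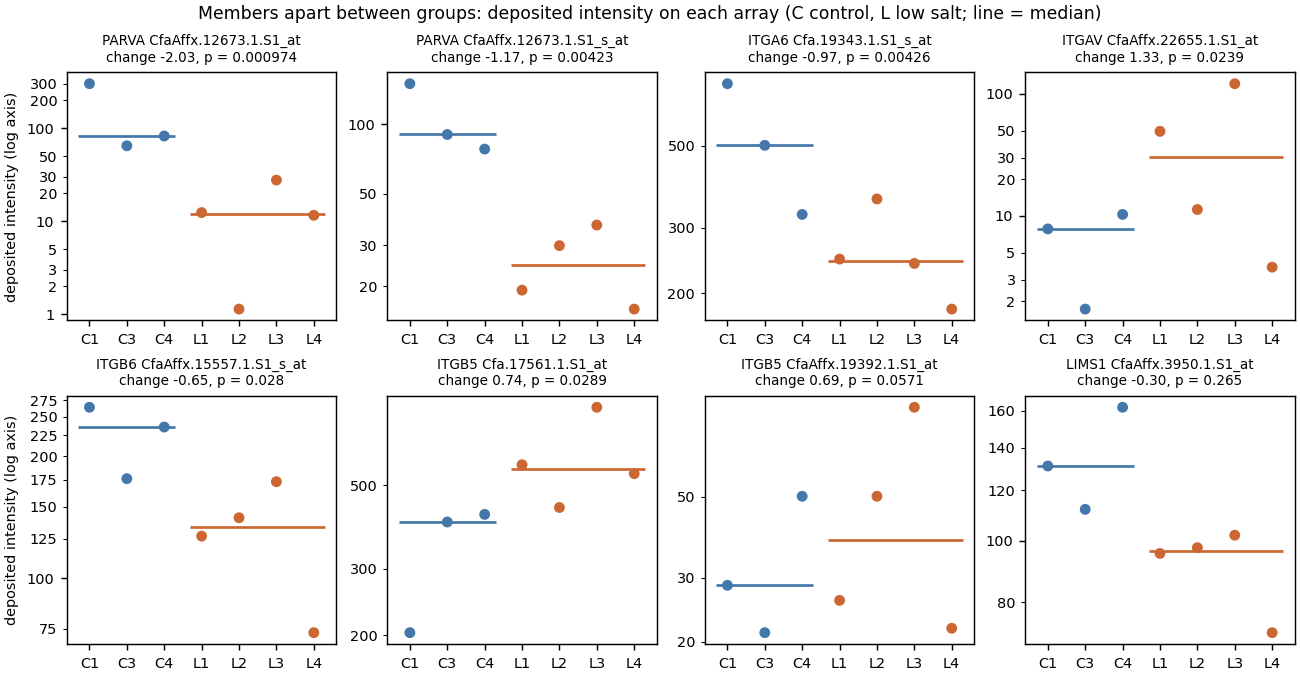
Deposited intensity (log axis, each panel with its own range) on every array for the 8 probe sets with an unadjusted p under 0.05 or with groups apart on the normalized scale, ordered by p; C1, C3 and C4 are controls, L1 to L4 low salt, and lines are group medians. Both PARVA probe sets show all 4 low-salt points below all 3 control points, whereas the groups overlap for ITGA6, ITGAV and the second ITGB5 probe set.

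The laminin-binding receptors of muscle and of epithelia gave 10 tested probe sets for 4 genes. Of these 1, or 10.0%, was at an unadjusted p under 0.05, against 11.0% of all tested probe sets. ITGA7, the alpha chain of the main laminin receptor of mature heart muscle, read 494, 530.1 and 439 in the controls and 836, 562, 459 and 543 in low salt with its leading probe set. The groups overlapped, and only low-salt sample 1 stood clear of the rest. The difference was 0.17 ± 0.21 (SE), with an interval from -0.29 to 0.62. The other tested ITGA7 probe sets were at 1.02 ± 0.64 and 0.43 ± 0.46 (SE), both with intervals that cross 0. The first of these was uneven within groups, at 59.2, 86.7 and 5.64 in the controls and 185, 63.4, 21.0 and 149.8 in low salt.

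ITGA6, the laminin receptor chain of endothelium, platelets and epithelia, read 735, 501 and 326 in the controls with probe set Cfa.19343.1.S1_s_at. The low-salt values were 247, 359, 240.4 and 181. Low-salt sample 2 lay above control 4, so the groups overlapped. The normalized means were 9.04 ± 0.56 (SD, n = 3) and 8.07 ± 0.34 (SD, n = 4), a difference of -0.97 ± 0.28 (SE, interval -1.58 to -0.36, limma unadjusted p = 0.00426, adjusted p = 0.242). The other ITGA6 probe sets were at -0.50 ± 0.32, -0.24 ± 0.31 and 0.01 ± 0.28 (SE). With array medians set equal the first probe set was at -0.51 (limma unadjusted p = 0.209) and the -0.24 turned to 0.15. The 10 endothelial markers had 0 of 16 tested probe sets at an unadjusted p under 0.05, and their summed intensity was 6286 to 9275 in controls and 6553 to 8770 in low salt. ITGA3, a laminin receptor chain of epithelia and vessels, was at -0.03 ± 0.37 (SE), and ITGB4, the partner of ITGA6 in hemidesmosomes, at 0.16 ± 0.31 and -0.40 ± 0.32 (SE).

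ITGB1, the beta chain shared by the laminin, collagen and many fibronectin receptors, was read by 1 tested probe set. It was 455, 388 and 361 in the controls and 437, 448, 367 and 222 in low salt. As deposited, only low-salt sample 4 lay below the controls. The difference was -0.20 ± 0.24 (SE), with an interval from -0.72 to 0.33, and it turned to 0.27 with array medians set equal. Among the genes that the symbol pattern took in beyond the subunits, ITGB1BP1 was measured most tightly. ITGB1BP1, also called ICAP-1, a protein of the beta-1 tail that competes with talin, read 1751, 2282 and 1901 in the controls and 1915, 1722, 1886 and 1938 in low salt. As deposited, 3 of the 4 low-salt values lay inside the control range, whereas after normalization 3 of the 4 lay below every control. The difference was -0.21 ± 0.14 (SE, interval -0.52 to 0.10). ITGB1BP2, or melusin, a muscle protein that binds the same tail and is known for its part in the response to pressure load, read 217, 154 and 180.3 in controls and 187, 233, 245 and 356 in low salt. The highest 3 values were low-salt samples, but the groups overlapped, and the difference was 0.48 ± 0.25 (SE, interval -0.06 to 1.02, limma unadjusted p = 0.0784). The secreted ITGBL1 was at 0.23 ± 0.34 (SE).

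Among the collagen receptors, 4 probe sets for 3 of 4 genes were tested and 0 were at an unadjusted p under 0.05 in limma or in the methods' t-test. ITGA1, the collagen IV receptor chain of vessels and fibroblasts, read 136, 92.1 and 92.9 in controls and 63.0, 65.9, 83.0 and 53.6 in low salt. All low-salt values were lower as deposited, but on the normalized scale the groups overlapped, at -0.25 ± 0.29 (SE, interval -0.87 to 0.36). ITGA11, a fibrillar collagen receptor of fibroblasts, was at 0.53 ± 0.35 and -0.22 ± 0.41 (SE) in its tested probe sets, and ITGA2, of platelets and epithelia, at -0.18 ± 0.42 (SE). The only ITGA10 probe set was too dim. ITGA1 shows how much the scale matters: the array medians of deposited intensity were 31.5 to 51.3 in controls, against 19.3 to 44.2 in low salt. On the deposited scale the groups were apart in 11 of the 58 tested probe sets, 10 of them lower in low salt, beside 12.7% of all tested probe sets. Only 4 of the 11 were apart on the normalized scale as well, namely both of PARVA and 1 each of ITGB6 and LIMS1.

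The receptors of RGD motifs in fibronectin, vitronectin and latent TGF-beta gave 12 tested probe sets for 5 of 8 genes. Of these, 3 or 25.0% were at an unadjusted p under 0.05, 2 higher and 1 lower, against 11.0% of all tested probe sets. ITGAV, the alpha chain shared by the vitronectin receptors, was led by probe set Cfa.18044.1.S1_at, which read 2771, 1802 and 2417 in controls and 2619.8, 2808, 1625 and 1231 in low salt. The groups overlapped widely, at -0.37 ± 0.26 (SE, interval -0.94 to 0.19), and the sign turned to 0.21 with array medians set equal. A dim ITGAV probe set, CfaAffx.22655.1.S1_at, read 7.84, 1.73 and 10.3 in controls and 49.3, 11.3, 121 and 3.81 in low salt. Its control mean was 4.37, so it entered the test through the low-salt samples. Its difference was 1.33 ± 0.52 (SE, interval 0.20 to 2.45, limma unadjusted p = 0.0239, adjusted p = 0.38). The groups were apart after normalization but not as deposited, where low-salt sample 4 lay below control 1. The third tested ITGAV probe set was at -0.03 ± 0.35 (SE), so the gene's probe sets did not move together.

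ITGB5, a partner of ITGAV in vitronectin binding, read 203, 399 and 418 in controls and 566, 436, 804 and 536 in low salt with probe set Cfa.17561.1.S1_at. All low-salt values were higher as deposited, and after normalization low-salt sample 2, at 8.77, fell below control 4, at 8.89. The difference was 0.74 ± 0.30 (SE, interval 0.09 to 1.39, limma unadjusted p = 0.0289, adjusted p = 0.396), and 0.38 without control 1 (unadjusted p = 0.195). A second ITGB5 probe set, CfaAffx.19392.1.S1_at, read 28.6, 21.2 and 50.2 in controls and 26.0, 50.2, 88.1 and 21.8 in low salt. These overlapped as deposited and were apart after normalization, at 0.69 ± 0.33 (SE, limma unadjusted p = 0.0571). The remaining tested ITGB5 probe sets were at 0.06 ± 0.41 and -0.08 ± 0.39 (SE).

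ITGB6, the epithelial partner of ITGAV that activates latent TGF-beta, read 264, 176 and 236 in controls and 127, 141, 173 and 73.4 in low salt with probe set CfaAffx.15557.1.S1_s_at. The groups were apart on both scales, by a small gap between control 3 and low-salt sample 3. The difference was -0.65 ± 0.27 (SE, interval -1.22 to -0.08, limma unadjusted p = 0.028, adjusted p = 0.394). It was -0.34 with array medians set equal (unadjusted p = 0.317), and the unadjusted p was 0.089 without control 1, 0.0668 without control 4 and 0.0839 without low-salt sample 4. A probe set with the same transcript number was at -0.04 ± 0.29 (SE). The leading ITGB6 probe set read 2507, 1726 and 1508 in controls and 1691, 1850.3, 1571 and 1568 in low salt, an overlap, with a difference of -0.31 ± 0.18 (SE, interval -0.69 to 0.08) that turned to 0.27 with array medians set equal. It stood far above the gene's other probe sets. The one at -0.04 read 27.9 to 83.0, and the untested CfaAffx.15546.1.S1_at and CfaAffx.15551.1.S1_at reached at most 10.1 and 36.4. The level of ITGB6 thus depends on the probe set. ITGA5, the fibronectin receptor chain, was at 0.12 ± 0.28 (SE, interval -0.48 to 0.71). ITGA2B, the platelet fibrinogen receptor chain, was at -0.49 ± 0.50 (SE). The only probe sets of ITGB3, the partner of ITGA2B, and of ITGB8 were too dim.

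ITGA8, a receptor chain of smooth muscle and fibroblasts, had 2 probe sets, both too dim for the test. One read 20.4, 41.0 and 33.8 in controls and 0.526, 2.50, 2.80 and 2.63 in low salt, with all low-salt values far below all controls. When no probe set was left out for low signal, this probe set differed by -1.11 (limma unadjusted p = 0.0015, adjusted p = 0.219) and the other by -0.79 (unadjusted p = 0.0476, adjusted p = 0.502). That fit had 9.80% of 42924 probe sets at an unadjusted p under 0.05 and, of the integrin and integrin-linked ones, 10 of 84. Low-salt values this close to the bottom of the scale give no usable fold. ITGA4, the VCAM-1 and fibronectin receptor chain of leukocytes and developing heart, read 44.6, 30.8 and 27.1 in controls and 13.4, 1.42, 23.4 and 15.8 in low salt. It was apart as deposited but overlapped after normalization, at -0.46 ± 0.40 (SE, interval -1.31 to 0.39). Its relative ITGA9 was too dim.

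The leukocyte integrins read intensities under 100 on every array. Of their 7 probe sets, 4 for 3 genes were tested. Of these, 0 were at an unadjusted p under 0.05 in limma or in the methods' t-test, and their median change was -0.08, in a range from -0.16 to 0.35. ITGB2, the beta-2 chain common to the group, read 76.3, 78.2 and 60.7 in controls and 28.8, 39.9, 84.7 and 49.1 in low salt. As deposited, the highest value and the 3 lowest were low-salt samples. After normalization the highest and the lowest were controls, and the difference was -0.03 ± 0.32 (SE, interval -0.71 to 0.65). A further ITGB2 probe set was at -0.16 ± 0.42 (SE). ITGAL, the LFA-1 chain of lymphocytes, was at -0.12 ± 0.43 (SE, interval -1.04 to 0.80), and it turned to 0.03 with array medians set equal. ITGAX, the chain of dendritic cells and macrophages, was at 0.35 ± 0.46 (SE, interval -0.64 to 1.34). In both, control 4 and low-salt sample 3, the arrays with the highest median signal in their groups, read highest.

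ITGAM, the Mac-1 chain of neutrophils and macrophages, fell below the limit for testing. It read 12.2, 18.3 and 21.1 in controls and 0.996, 1.06, 6.39 and 2.16 in low salt, with no overlap. With no probe set left out it differed by -0.64 (limma unadjusted p = 0.0071, adjusted p = 0.362). Among the 26 untested integrin and integrin-linked probe sets 4, or 15.4%, were apart, 1 each of ITGA8, ITGAM, ITGB6 and LIMS1. The share was 8.13% over all 14308 untested probe sets and 9.91% over all 42924. The tested chains of the leukocyte group, given above, overlapped between groups. The summed intensity of the leading probe sets of the 4 leukocyte integrins was 106 to 180 in controls and 40 to 200 in low salt.

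Blood-cell markers were read beside these genes. Of 16 tested probe sets of general leukocyte markers, 2 were higher and 1 lower at an unadjusted p under 0.05. That is 18.8%, against 11.0% of all tested probe sets. The summed intensity of the leading probe sets of the 10 genes was 759 to 1146 in controls and 703 to 1053 in low salt. Macrophage markers had 3 higher of 17 (17.6%), led by the complement component C1QB at 1.01, with sums of 1662 to 2382 and 2103 to 2815. Lymphocyte markers had 1 of 9 (11.1%), CD4 at -1.95 (limma adjusted p = 0.121), while the other tested CD4 probe set was at 0.06. The sums were 341 to 752 and 112 to 346. Neutrophil markers had 0 of 6 (sums 246 to 574 and 204 to 651) and platelet markers 0 of 4 (131 to 147 and 41 to 180). The part of these cells in the integrin values was not tested. ITGAE and ITGB7, which pair in lymphocytes of epithelia, had 6 tested probe sets from -0.33 to 0.61 and 0 at an unadjusted p under 0.05. The leading ITGB7 probe set read 183, 214 and 328 in controls and 333, 247, 409 and 246 in low salt, an overlap, with a difference of 0.36 ± 0.28 (SE).

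**Figure D4:**
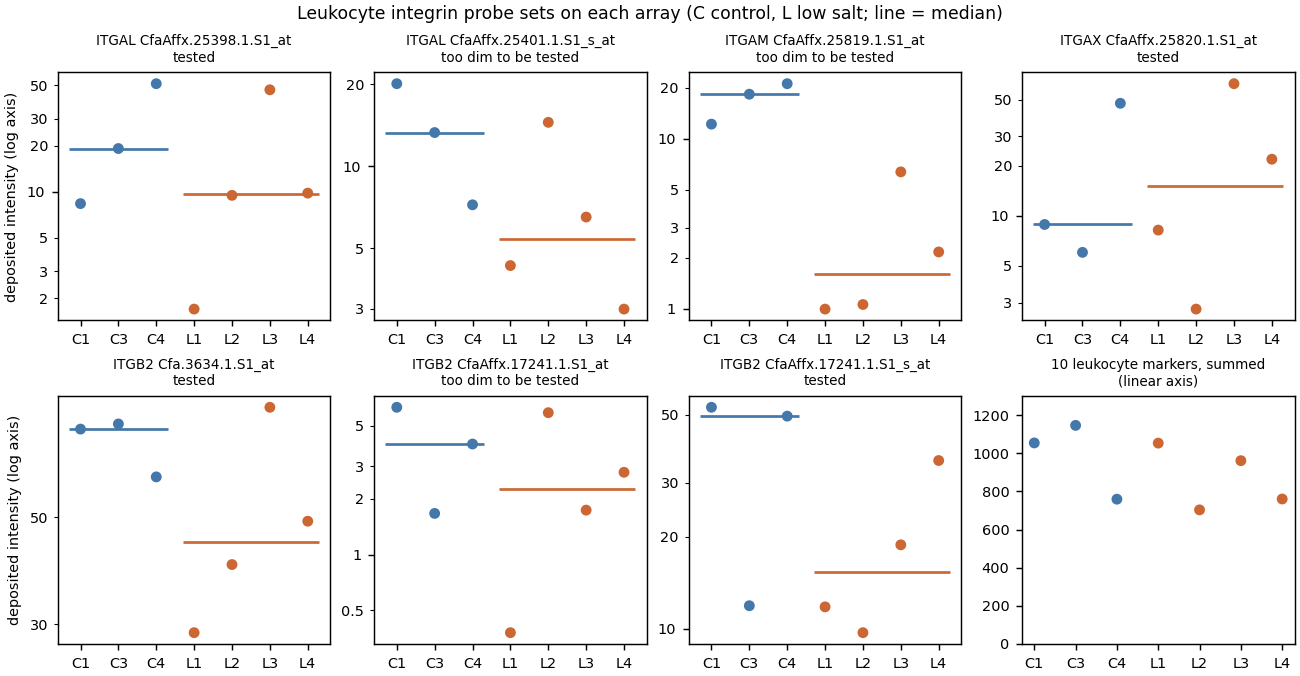
Deposited intensity (log axes, each panel with its own range) of the 7 leukocyte integrin probe sets on every array, with group medians as lines, and the summed intensity of 10 general leukocyte markers (linear axis). ITGAM is the only panel in which the 3 control and 4 low-salt points do not overlap, and it was too dim to be tested.

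Cardiomyocyte markers were read strongly on every array, and the leading probe sets of the 13 genes summed to 86049 to 137454 in controls and 85793 to 118397 in low salt. Of their 49 tested probe sets 1 was higher and 3 lower at an unadjusted p under 0.05, 8.16% against 11.0% of all tested probe sets. A probe set of the tropomyosin TPM1, at -1.26, was the 1 that passed the adjustment (limma adjusted p = 0.0411). The methods' t-test also had 1 adjusted call among these markers. The other 3 tested TPM1 probe sets were at 0.01 to 0.23. Fibroblast markers had 0 of 21 tested probe sets at an unadjusted p under 0.05. Smooth muscle and pericyte markers had 4 of 18, or 22.2% against 11.0% of all tested probe sets, and all 4 were higher. They were the actin-associated TAGLN (1.28, other probe sets 0.83 and 0.38) and CNN1 (1.19, the other 0.38), and both tested probe sets of DES (0.77 and 0.75). DES encodes the intermediate filament protein desmin, which cardiomyocytes also make, so its values are not particular to smooth muscle or pericytes. The CNN1 probe set had a control mean of 4.64, under 5.0, so it entered the test through the low-salt samples. The sums of the list were 1575 to 2238 in controls and 1956 to 2714 in low salt. The part of these cells in the integrin values was not tested.

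Where a gene had several tested probe sets, they often differed in sign. Of 17 such genes, 8 had all on 1 side of 0 and 9 on both. PARVA, whose probe sets may share probes, was among the 8, and ITGA6, ITGAV and ITGB5 among the 9. Precision went with brightness: the median SE was 0.29 in the brighter 29 tested probe sets and 0.41 in the dimmer 29, and 20 and 7 of them had intervals within a 2-fold change. The average of a gene's tested probe sets, chosen after the data were seen, gave 3 of 30 genes at an unadjusted p under 0.05 in limma, against 10.6% of all genes, in place of 5. These were PARVA at -1.60 (unadjusted p = 0.000606, adjusted p = 0.149), ITGA7 at 0.54 (unadjusted p = 0.0403, adjusted p = 0.443) and ITGB1BP2 at 0.48 (unadjusted p = 0.0452, adjusted p = 0.459). The PARVA average includes CfaAffx.12673.1.S1_at, which entered through the controls (low-salt mean 4.90). That of ITGA7 includes CfaAffx.1059.1.S1_at, which entered through the low-salt samples (control mean 4.87), and leaves out its untested probe sets, at 0.18 and 0.34.

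**Figure D5:**
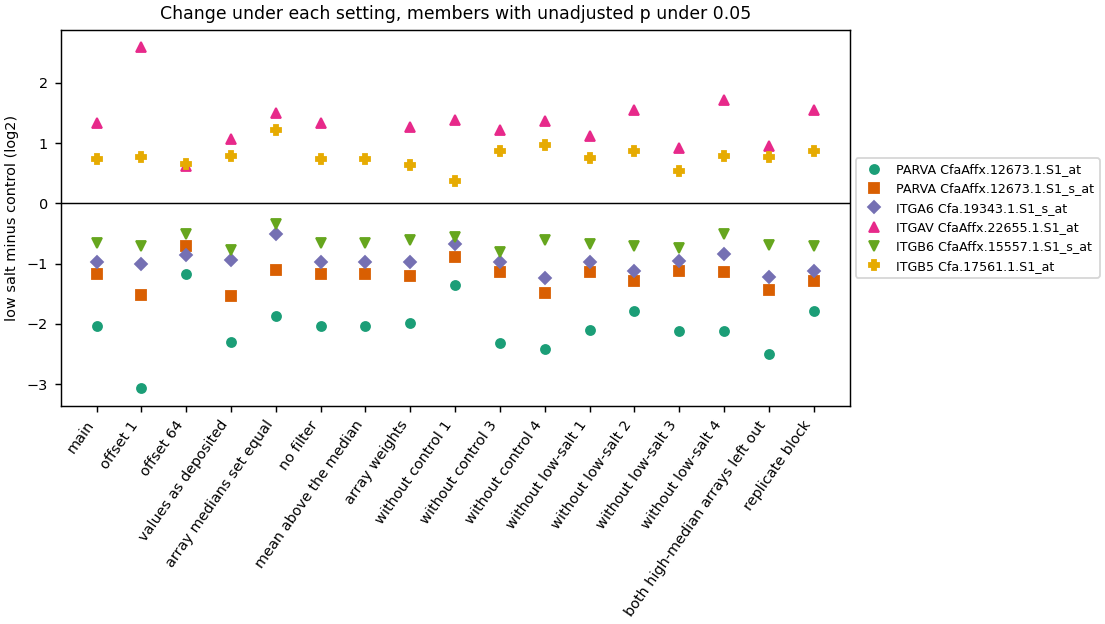
Change (low salt minus control, log2) of the 6 probe sets with an unadjusted p under 0.05, in the reported fit and 16 other settings along the horizontal axis. ITGAV has no point with only probe sets above the median signal. All points keep their side of 0, in probe sets picked by their p in the reported fit to the same arrays. The PARVA probe set CfaAffx.12673.1.S1_at runs from -3.07 with an offset of 1 to -1.17 with an offset of 64.

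The neighbours of the integrins at the adhesion site were read from a list of 47 further genes. Of their 84 tested probe sets 8 were higher and 4 lower at an unadjusted p under 0.05, 14.3% against the 11.0% of all, with a median change of 0.04. After adjustment 1 passed, a probe set of the actin crosslinker filamin A (FLNA), which rose by 2.46 ± 0.35 (SE, limma adjusted p = 0.00991), while its other tested probe sets were at -0.72 and 0.46. The control mean of the passing FLNA probe set was 4.69, under 5.0, so it entered the test through the low-salt samples. In the methods' t-test 0 of the 84 passed the adjustment, and 6 or 7.14% were at an unadjusted p under 0.05, against 10.0% of all. The LIM-domain protein CSRP1, at 1.01, and the tetraspanin CD151, a partner of laminin-binding integrins, at 0.98, were next by p, followed by caveolin-1 (CAV1) at -0.72, all with limma adjusted p of 0.321 or more. Other tested probe sets were at -0.37 and -0.06 for CSRP1, 0.31 for CD151, and -0.25 and -0.12 for CAV1.

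The matrix ligands made up a list of 42 genes with 81 tested probe sets. Of these, 5 were higher and 6 lower at an unadjusted p under 0.05, or 13.6%, and 0 passed the adjustment in limma or in the methods' t-test, which had 8 at an unadjusted p under 0.05. Their median change was 0.00. EMILIN1, an elastic fibre protein bound by ITGA4 and ITGA9 receptors, was at 1.51 ± 0.34 (SE, limma adjusted p = 0.0993), with 4 further probe sets between -0.45 and 0.35. Vitronectin (VTN), the ligand of ITGAV with ITGB3 or ITGB5, was at -2.04 ± 0.49 (SE, limma adjusted p = 0.129), and its other tested probe set was at 0.43. The laminin chain LAMB1 was at -1.25 and -1.48 in separate probe sets (limma adjusted p = 0.249 and 0.335), with 4 further tested probe sets between -0.28 and 0.53. Fibulin-5 (FBLN5), which carries an RGD motif, was at 0.94 (limma adjusted p = 0.279), 0.76 and 0.21. The probe sets of smallest p of FLNA, EMILIN1, VTN and LAMB1 also had 1 group mean under 5.0, and so entered the test through the other group.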

How the data were processed

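Total RNA of the left ventricle was read, per the labels, on canine Affymetrix arrays of 1 colour. The deposited values are probe set intensity on a linear scale, made by the authors with GCOS per the submitters' processing notes; its version, probe summarisation and transcript build are not stated in these sources. The 2% trimmed mean was 150 to 150.1 on every array.

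From these, log2(intensity + 16) was computed, arrays were quantile normalized, and the 111 control probe sets and those of lowest mean (1 in 3) among the other 42924 were left out. The remaining 28616 were fitted with limma 3.58.1 in R 4.3.3 (eBayes with a mean-variance trend, low salt against control, no covariates), with Benjamini-Hochberg adjustment over all of them; the fit was tested on simulated data. Group and number came from the sample titles. Arrays give no read depth, so their number limits the precision.

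Symbols came from the platform annotation; 34 of the 37 genes matched the RefSeq table of UU_Cfam_GSD_1.0 and the others kept the platform's symbol. No coordinates or sequences are given. Every member gene is accounted for; members at an unadjusted p under 0.05 or without overlap, and the leading probe set of each role group, are given by array, and at most 4 genes of smallest p were named from each other list. Array values of ILK, ITGB1BP2, the leading ITGB6 and a second ITGA7 probe set were added after they were seen. The members and lists were chosen with earlier results of these data known. Alternatives were offsets of 1 and 64, no further normalization, equal array medians, no or a stricter filter, array weights, the methods' t-test, each array left out, a replicate block, and, added after seeing the data, both arrays of high median left out and gene means.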

Additional observations from a re-analysis of the deposited data

Results flagged for a closer look

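In 6 of the 58 tested probe sets 1 low-salt sample stood far from the other 3 on the normalized log2 scale. The nominal rate of the rule is about 1 in 20 such groups. The share over all tested probe sets was not computed, so the count cannot be read as a trait of these genes. Low-salt sample 2 was apart in both PARVA probe sets, but on opposite sides: it was the lowest, at 4.18, in CfaAffx.12673.1.S1_at and the highest, at 5.86, in CfaAffx.12673.1.S1_s_at. The same sample was lowest, at 4.22, in an ITGA11 probe set. Low-salt sample 3 was lowest, at 6.59, in the leading ILK probe set and highest, at 6.45, in an ITGAE probe set. Low-salt sample 4 was highest, at 6.10, in the second ITGB2 probe set.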

How the results depend on the processing

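With 3 and 4 arrays the median SE was 0.34, and for 31 of the 58 tested probe sets the 95% interval reached a 2-fold change. The count past an adjusted p of 0.05 was 0 in the reported fit, against 0.346% of all tested probe sets. It was 1, PARVA, with array medians set equal, against 0.486%. It was also 1 with both arrays of high median (control 4 and low-salt 3) left out, against 1.04%, a setting chosen after seeing the data. Leaving out 1 array at a time gave 0 to 1, with 1 only without control 4, where the share was 0.912%. The share over the whole array thus rose in each setting in which PARVA passed. The count at an unadjusted p under 0.05 was 10 of 84 with no filter, beside 6, and 4 to 7 with 1 array left out, where the share over all tested probe sets was 8.0% to 13.3%. The median change of the tested probe sets was -0.25 on the values as deposited (all tested -0.18) and 0.18 with array medians set equal (all tested 0.26), and -0.10 to 0.01 with 1 array left out. That of the leukocyte integrins was -0.43 on the values as deposited and ran from -0.13 to 0.10 with 1 array left out. The 8 probe sets with an unadjusted p under 0.05 or with groups apart kept their sign in every setting, and 31 of the 58 turned sign in at least 1 of 17 settings. The 8 were picked by p or separation in the same arrays, so the kept sign is no separate evidence. An unadjusted limma p under 0.05 was found in 17 of 17 settings for both PARVA probe sets, 16 for ITGA6, 14 for ITGB5, 12 for ITGB6 and 10 of 16 for ITGAV. These counts include the reported fit, by which the probe sets were picked, and leave out the t-test. The other settings reuse the same arrays, so the counts are no separate evidence either.

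Same-numbered control and low-salt samples did not deviate together over the tested probe sets, with correlations of 0.0743, -0.264 and -0.18. With 3 such pairs this cannot tell whether they shared a batch or a day, and the labels name neither. With the number as a replicate block, over 6 arrays, 0 probe sets passed the adjustment and 7 were at an unadjusted p under 0.05, 2 higher and 5 lower, against 6.18% of all tested; the medians were -0.04 and, for leukocyte integrins, -0.03.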
